A study of Mus musculus with 26 samples.

Results

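The genes described here encode the nuclear-encoded subunits of oxidative phosphorylation and a small group of their assembly factors. They were taken from the count tables by symbol alone: every gene whose symbol starts with Nduf, Uqcr, Cox4, Cox5, Cox6, Cox7, Cox8 or Atp5, together with Sdha, Sdhb, Sdhc, Sdhd and Cyc1. The rule itself uses no measured value, but it was chosen with earlier results of these data known. The rule found 93 of the 31977 genes that the tables share. Of these, 36 encode subunits of complex I, 4 of complex II, 9 of complex III, 20 of complex IV and 15 of complex V, 7 are complex I assembly factors, and 2 (Atp5s and Atp5sl) match by prefix and are not counted with a complex.

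Complexes I to IV form the respiratory chain of the inner mitochondrial membrane. Complex I takes electrons from NADH and complex II takes them from succinate, both pass them to coenzyme Q, complex III passes them on to cytochrome c, and complex IV hands them to oxygen. Complex V, the ATP synthase, uses the proton gradient that the chain builds to make ATP, on which the ion pumps and synapses of neurons depend. Some further subunits are encoded in mitochondrial DNA and made on mitochondrial ribosomes. Those are not analysed here.

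Ribosome-bound RNA was measured in dorsal striatum of adult Drd2-TRAP mice of line CP101, an FVB/N-Swiss Webster line bred for at least 9 generations to C57BL/6. All mice, controls included, carried a transgene in which Drd2 regulatory sequences drive the ribosomal protein Rpl10a fused to EGFP, and antibodies to EGFP pulled down the tagged polysomes of every cell in which that transgene is active. Cocaine or saline was self-administered intravenously in long-access sessions, and by title the cocaine mice fall into an escalating and a nonescalating group. The immunopurified (IP) libraries numbered 9 from nonescalating mice after withdrawal, 5 from saline mice after withdrawal, 2 from escalating mice, 4 from nonescalating mice and 3 from saline mice. Another 3 libraries came from unpurified input RNA, 1 each for nonescalating, saline and saline withdrawal mice. The sources used here give no cocaine dose, no length of withdrawal, and nothing on which libraries come from separate or pooled animals, so p-values measure only the spread between these libraries. The library numbers in the titles were read here as 2 runs, called set A and set B, which no title names. Set A took in every IP library of mice without withdrawal, and 2 inputs. It also took in 4 nonescalating withdrawal and 2 saline withdrawal IP libraries. Set B took in 5 nonescalating withdrawal and 3 saline withdrawal IP libraries, and 1 input. Except for saline withdrawal replicate 2, titles in set A mark each library as a copy of an earlier number. What was copied is not stated. The number of that replicate lies among those earlier numbers, but it lists 32531 genes, as all set B libraries do.

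IP libraries held 3279457 to 19122303 counts in genes and inputs 5016587 to 11549493. Between 21.2% and 70.7% of uniquely aligned reads lay outside genes in IP libraries, against 27.3% to 31.6% in inputs. In 5 IP libraries, 3 from nonescalating withdrawal and 2 from saline withdrawal mice, that share was over 50%. Of the D2 neuron markers 5 of 6 were called higher in IP than in input RNA, while 4 of 6 direct-pathway neuron, 3 of 7 interneuron, 5 of 7 astrocyte, 6 of 7 oligodendrocyte and 1 of 5 microglia markers were called lower. The summed level of the 6 D2 neuron markers ranged from 1958 to 14350.2 CPM, the count scaled to library depth, in the 12 IP libraries of the 3 conditions with an input, against 1901 to 2020.0 CPM in the inputs. Of the vessel markers 3 of 7 endothelial and 1 of 7 mural ones were called higher, and the 7 mural markers summed to 117 to 4596 CPM in those IP libraries, against 106 to 220.2 CPM in the inputs.

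Subunits of all 5 complexes were present in ribosome-bound RNA. Over the 23 IP libraries the 93 genes summed to 6428 ± 2017 CPM (SD), against 6664 ± 509 CPM in the 3 inputs, with CPM computed on scaled library sizes. The level was carried by few genes. Atp5b, the catalytic beta subunit of the ATP synthase, averaged 1549 CPM and held 24.1% of the summed level of the 93 genes, and Atp5a1, its alpha subunit, averaged 612 CPM and held 9.53%. Sdha, the flavoprotein of complex II, averaged 407 CPM. In the 12 IP libraries of conditions with an input, complex V held 44.0 ± 3.26% of the summed level, against 48.4 ± 0.832% in the inputs. Complex I held 22.6 ± 1.83%, against 21.3 ± 0.498%, and complex IV 14 ± 1.6%, against 13.5 ± 1.22%. Complex II held 9.84 ± 1.38%, against 8.30 ± 1.49%, and complex III 6.93 ± 0.762%, against 5.72 ± 1.02%. These shares were not tested.

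**Figure D1:**
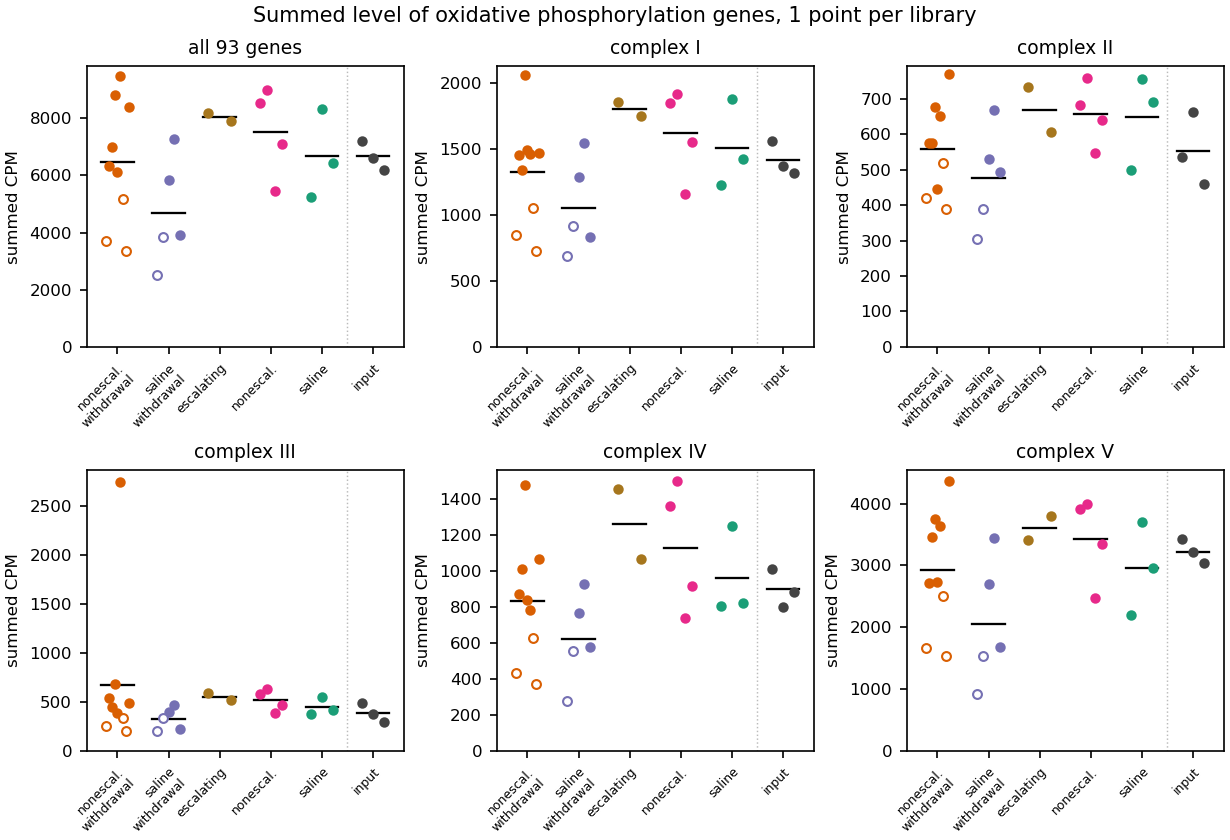
Summed CPM (vertical axis) of all 93 genes and of complexes I to V in each of the 23 IP libraries, by group, and in the 3 inputs, with a bar at the group mean and open points for the 5 libraries with over 50% of reads outside genes. Over all 93 genes the open points lie between 2504 and 5165 CPM, and 1 nonescalating withdrawal library stands apart in complex III at 2743 CPM.

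Levels are compared between genes here per kilobase of the principal transcript, as the mean over the 23 IP libraries. The median gene of complex V stood at 79.5 CPM per kilobase, that of complex IV at 56.4, of complex III at 55.4, of complex II at 40.4, of complex I at 37.2 and of the assembly factors at 11.5. The complex IV median counts its tissue isoforms, which stood at 0 (Cox8c) to 3.97 (Cox4i2) CPM per kilobase. Its common subunits stood at 54.8 (Cox5a) to 292 (Cox8a), so the place of complex IV in this order depends on counting those isoforms. The highest in complex I was Ndufb9, a supernumerary membrane-arm subunit, at 111 CPM per kilobase, and the lowest were Ndufab1, an acyl carrier protein, at 12.3 and Ndufb4, a supernumerary subunit, at 9.16. In complex II, Sdha stood at 140.3 and the membrane anchor Sdhd at 41.1 CPM per kilobase, above the iron-sulfur subunit Sdhb at 39.7 and the anchor Sdhc at 24.3. In complex III, the small subunit Uqcr10 stood at 106 CPM per kilobase and the core protein Uqcrc1 at 118, which 1 library carried: over the other 22 it was 57.2, below Uqcr10 and the hinge protein Uqcrh at 94.2. The lowest were Uqcrb at 33.6 and the Rieske iron-sulfur protein Uqcrfs1 at 21.1. In complex IV, Cox8a and Cox6a1, the common forms of 2 small structural subunits, stood highest at 292 and 231 CPM per kilobase. In complex V, Atp5b stood at 809 and Atp5a1 at 248 CPM per kilobase, far above Atp5g2, one of the 3 genes for the membrane c subunit, at 15.5 and the small membrane subunit Atp5l at 3.90. Among the assembly factors, Ndufaf3 at 22.7 and Ndufaf2 at 20.5 CPM per kilobase stood highest and Ndufaf1 at 4.83 and Ndufaf6 at 3.46 lowest.

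To ask which of these genes are enriched or depleted on the tagged ribosomes, the 12 IP libraries of nonescalating, saline and saline withdrawal mice were compared with the 3 inputs. Of the 89 genes that passed the filter on low counts, 3 were called higher in IP than in input RNA (Atp5k, Uqcr10 and Ndufa4l2) and 3 lower (Ndufb5, Ndufaf1 and Cox6a2), at an edgeR Benjamini-Hochberg adjusted p under 0.05. That is 6.74% of the 89, and the same rule called 7.38% of all 15610 genes tested (3.58% higher and 3.8% lower). At an unadjusted p under 0.05, 14 of 89 were higher, against 15.4% of all genes, and 6 lower, against 10.9%. The median log2 fold change was 0.15 over the 89 genes and 0.16 over all genes. It was 0.13 in complex I, 0.24 in complex II, 0.32 in complex III, 0.18 in complex IV, 0.14 in complex V and -0.15 among the assembly factors. Without saline withdrawal set B replicate 2 the median over the 89 was 0.093. The remaining genes, Cox7a1, Cox7b2, Cox8b and Cox8c, had too few counts to be tested. Of the 89, 7 reached the level of the filter in enough libraries of 1 kind only: Ndufb7, Ndufa4l2, Cox4i2, Cox6b2, Atp5l and Ndufaf6 in IP libraries and Cox6a2 in the inputs. Such a gene is tested because it is high in 1 kind of library, so its call, which 2 of them have (Ndufa4l2 and Cox6a2), is not independent of the filter.

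**Figure D2:**
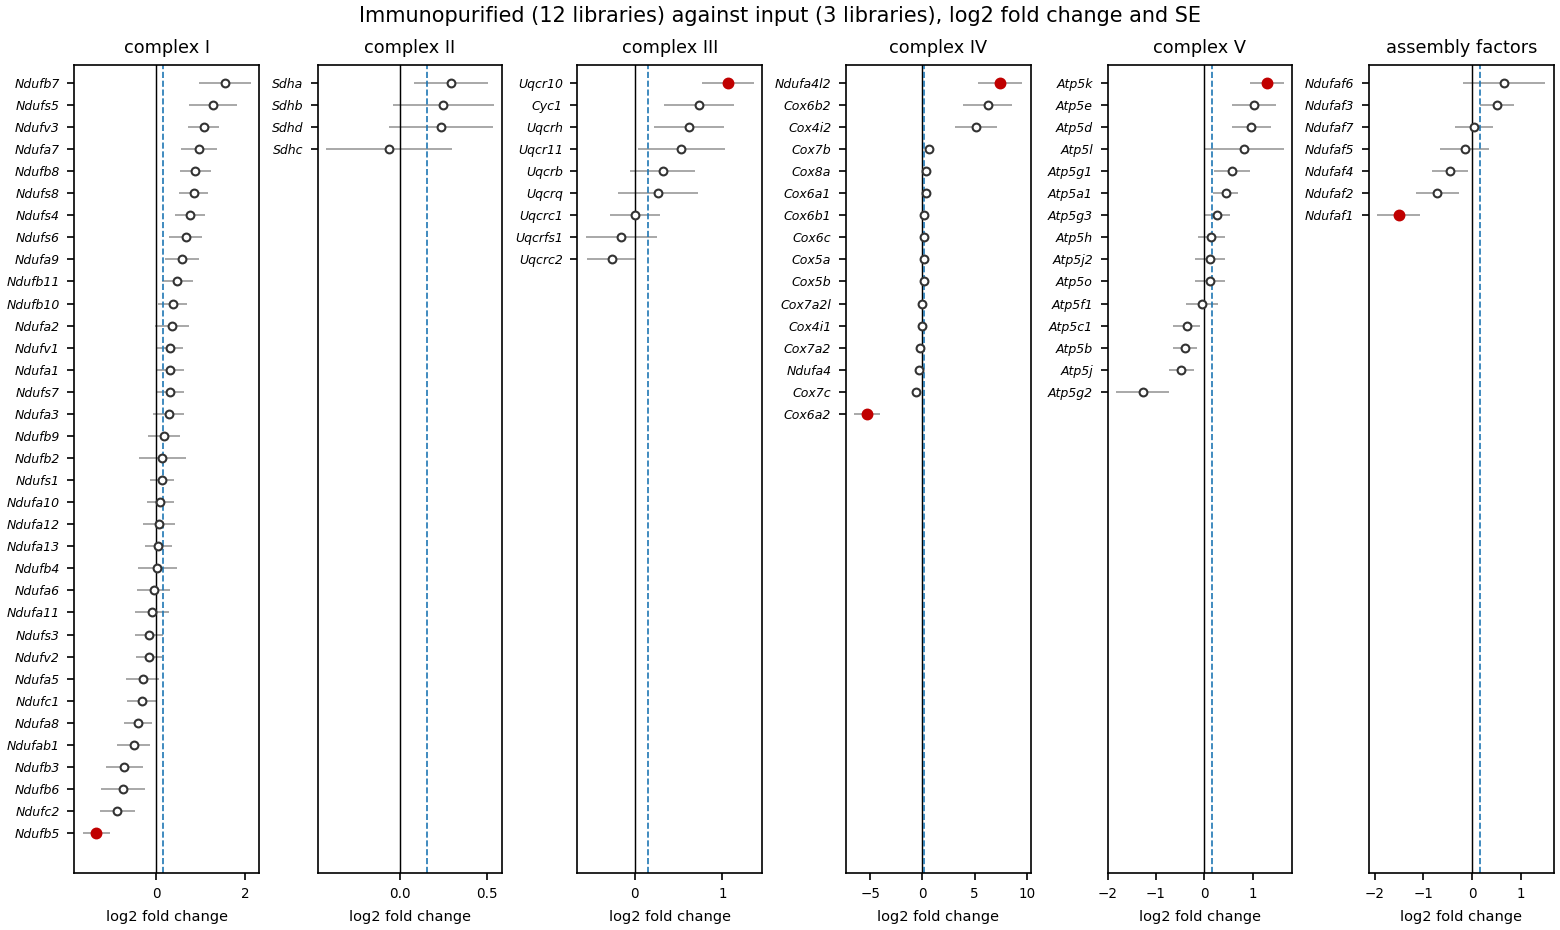
Log2 fold change of IP over input (horizontal axis, a separate scale in each panel) with its SE for 86 tested genes of complexes I to V and the assembly factors, with filled red points for genes called at an adjusted p under 0.05 and a dashed line at the median of all genes tested. The points farthest from that line are isoforms of complex IV, Ndufa4l2, Cox6b2 and Cox4i2 to the right and Cox6a2 at -5.27 to the left.

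Atp5k, a small membrane subunit of the ATP synthase, was called higher in IP RNA. Its lowest, median and highest levels were 12.8, 30.7 and 49.1 CPM in the 12 IP libraries, against 15 CPM in the nonescalating, 15.2 in the saline and 9.80 in the saline withdrawal input. The groups overlapped, with 10 of 12 IP libraries above all inputs. The log2 fold change was 1.29 ± 0.35 (SE, as for every log2 fold change here; edgeR adjusted p = 0.0365). Uqcr10, a small supernumerary subunit of complex III, had 14.8, 43.5 and 76.9 CPM as lowest, median and highest IP levels, against 30.7, 28.9 and 13.9 CPM in the inputs in the same order. Here 9 of 12 IP libraries lay above all inputs, and the log2 fold change was 1.06 ± 0.29 (edgeR adjusted p = 0.0393).

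Ndufb5, a membrane-arm subunit of complex I, was called lower in IP RNA. Its lowest, median and highest IP levels were 12.5, 34.2 and 49.3 CPM, against 66.8, 62.2 and 134 CPM in the nonescalating, saline and saline withdrawal inputs. All 12 IP libraries lay below every input, as did the 11 IP libraries outside this comparison, and the log2 fold change was -1.34 ± 0.31 (edgeR adjusted p = 0.0162). Ndufaf1, an assembly factor of the complex I membrane arm, had 2.52, 7.18 and 16.2 CPM as lowest, median and highest IP levels, against 22.1, 17.6 and 30.1 CPM in the inputs. Again no IP library reached an input, and the log2 fold change was -1.51 ± 0.44 (edgeR adjusted p = 0.0476). In all, 3 of 89 genes (3.37%) had every IP library below every input, against 3.57% of all genes, and 0 of 89 had every IP library above every input, against 1.95%.

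**Figure D3:**
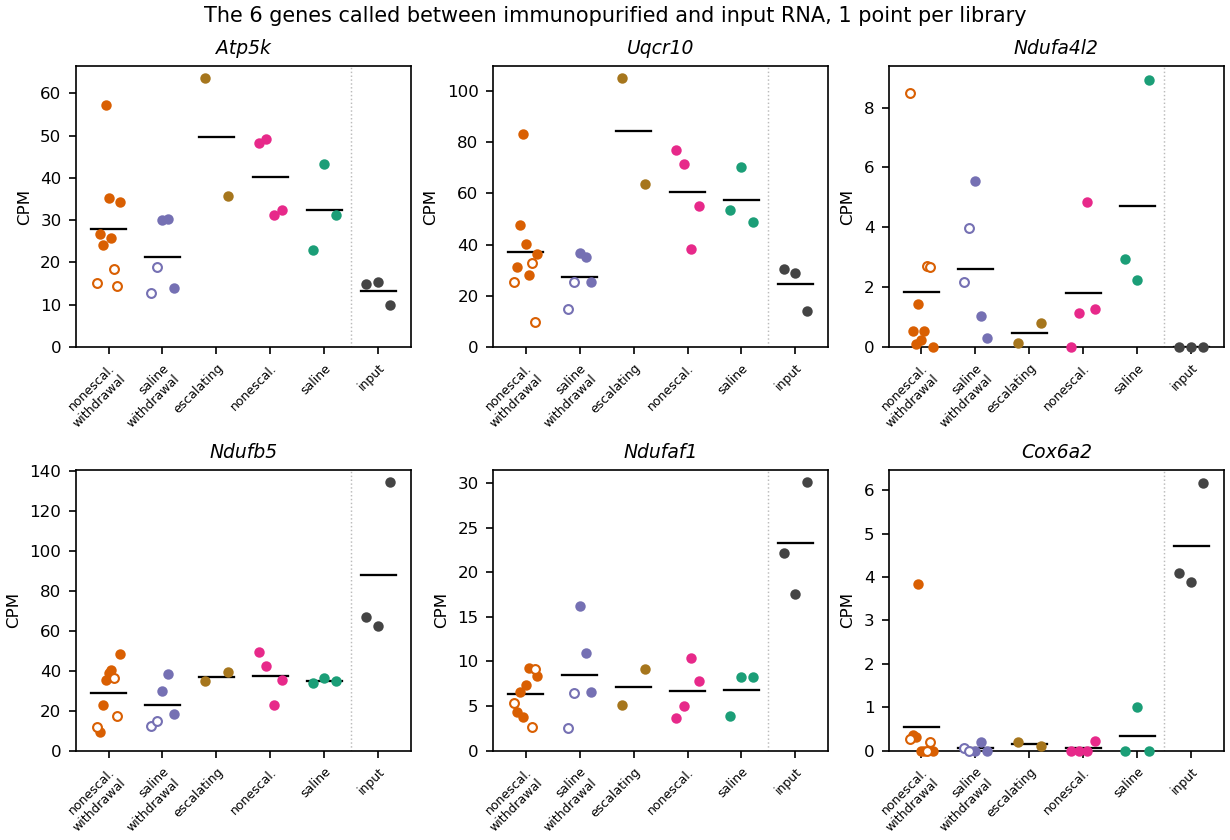
CPM (vertical axis) of the 6 called genes in each of the 23 IP libraries, by group, and in the 3 inputs, with a bar at the group mean and open points for libraries with over 50% of reads outside genes. Ndufb5, Ndufaf1 and Cox6a2 are lower in every IP library than in every input, Ndufa4l2 is at 0 in all inputs, and Atp5k and Uqcr10 overlap with the inputs.

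These calls rested on few libraries. Leaving out the saline withdrawal input ended all 6 calls, leaving out the nonescalating input ended all but that of Ndufb5, and leaving out the saline input ended all but those of Ndufb5 and Cox6a2. Ndufb5 and Cox6a2 stayed called without any single IP library. Ndufb5 lost its call only without the saline withdrawal input (edgeR adjusted p = 0.156), with a log2 fold change of -0.82. The call of Atp5k also ended without saline replicate 3 or 4, nonescalating replicate 4, or saline withdrawal set B replicate 1 or 2, and that of Uqcr10 without those libraries, saline replicate 1 or nonescalating replicate 1. That of Ndufaf1 also ended without saline replicate 1 or 4, nonescalating replicate 1 or 4, or any set B saline withdrawal library, and that of Ndufa4l2 without any library but saline replicate 3 and nonescalating replicates 1 and 2. Without any 1 of the 15 libraries each gene kept the sign of its fold change.

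Several called genes share exon bases with a neighbour on either strand, and the sources used here do not say whether reads were counted by strand. By the GENCODE M21 gene models, 12.3% of the exon bases of Ndufb5 lie in an exon of Mrpl47, 10.3% of those of Cox6a2 in Itgad and 2.92% of those of Ndufa4l2 in Shmt2, and none of Atp5k, Uqcr10 or Ndufaf1 is shared. Reads set aside as ambiguous between genes made up 0.942% to 2.85% of reads in IP libraries, against 8.61% to 12.8% in inputs. Over 92 genes with a model, 31 share exon bases, and 3 share over 20%: Ndufaf2 (65.6%), Ndufb6 (39.0%) and Ndufa13 (30.0%), whose values are therefore less certain. Genes below that cut are not free of this limit, among them Uqcrc2 (19.7%), Ndufb9 (19.5%, with Gm49356 on its own strand) and Ndufa2 (11.5%, with Tmco6).

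The promoters of the 4 called genes that the RefSeq table holds (GRCm38.p6) are shown because they differ in the motifs known from respiratory chain genes. Cox6a2 and Ndufa4l2 are not shown. Each is the 250 bases before the annotated start, read 5′ to 3′ on the gene's strand, with capitals at a match to a motif on either strand.
Atp5k chr5:108434400-108434649 (minus strand): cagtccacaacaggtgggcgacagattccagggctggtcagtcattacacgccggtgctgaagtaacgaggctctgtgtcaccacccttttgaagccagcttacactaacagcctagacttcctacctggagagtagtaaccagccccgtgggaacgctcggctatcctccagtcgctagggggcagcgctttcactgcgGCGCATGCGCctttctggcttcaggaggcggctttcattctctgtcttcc
Uqcr10 chr11:4704345-4704594 (minus strand): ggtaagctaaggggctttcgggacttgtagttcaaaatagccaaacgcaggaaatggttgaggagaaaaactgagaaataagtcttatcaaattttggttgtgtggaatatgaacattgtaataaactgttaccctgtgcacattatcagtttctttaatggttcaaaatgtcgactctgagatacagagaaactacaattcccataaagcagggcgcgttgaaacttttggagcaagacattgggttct
Ndufb5 chr3:32736813-32737062 (plus strand): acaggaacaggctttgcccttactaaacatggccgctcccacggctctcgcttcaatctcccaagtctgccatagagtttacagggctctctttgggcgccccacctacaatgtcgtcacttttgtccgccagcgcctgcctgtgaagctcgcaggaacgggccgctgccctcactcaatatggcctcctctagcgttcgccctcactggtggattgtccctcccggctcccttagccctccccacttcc
Ndufaf1 chr2:119662835-119663084 (minus strand): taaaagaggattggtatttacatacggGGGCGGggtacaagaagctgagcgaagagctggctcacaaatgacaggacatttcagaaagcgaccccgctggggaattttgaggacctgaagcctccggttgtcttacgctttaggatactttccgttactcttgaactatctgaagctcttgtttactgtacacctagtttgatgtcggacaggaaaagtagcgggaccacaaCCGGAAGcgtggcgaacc

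The capitals in Atp5k mark a match to the motif of NRF-1, a factor known to act at many respiratory chain promoters. Those in Ndufaf1 mark CCGGAAG, the core that ETS factors such as NRF-2 bind, and GGGCGG, the GC box of Sp1. No match says only that these letters are not in this window. Over the 73 of 93 genes with a promoter in the table, 13 held the NRF-1 motif (17.8%, against 3.86% of all 27025 promoters), 12 held CCGGAAG (16.4%, against 7.05%) and 28 held GGGCGG (38.4%, against 32.9%). AAGGTCA, the site of estrogen-related receptors, was in 5 (6.85%, against 4.05%), and AAGATGGC, the motif of YY1, was in 0 of 73, against 1.59% of all promoters. All motifs were read on both strands.

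Complex I held 1 call among 36 tested subunits. Unlike Ndufb5, the other 3 subunits with the lowest p had higher IP than input levels without passing: the NADH-module subunit Ndufv3 had a log2 fold change of 1.07 ± 0.35 (edgeR adjusted p = 0.0715), the membrane-arm subunit Ndufb7 1.54 ± 0.58 (0.114) and the membrane-arm subunit Ndufb8 0.89 ± 0.34 (0.120). Ndufv3 averaged 26.8 ± 10.7 CPM in the 12 IP libraries and 14.4 ± 4.84 CPM in the 3 inputs (SD). Ndufb7 averaged 22.3 ± 11 CPM in the IP libraries and 10.1 ± 8.90 CPM in the inputs, so that its SD was large beside its difference. Ndufa2, a small subunit of the NADH module, ranged from 8.84 to 61.5 CPM with a median of 18.8 in the IP libraries, against 23.4, 22.6 and 12.1 CPM in the nonescalating, saline and saline withdrawal inputs. The inputs lay inside the IP range, and its log2 fold change was 0.36 ± 0.38 (edgeR adjusted p = 0.590). Without the saline withdrawal input the value of Ndufb7 was 0.90, and that of Ndufa2 was 0.16 without the nonescalating and 0.67 without the saline input. Of the 36, 23 had a fold change above 0 and 13 below, against 56.7% above 0 over all genes.

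No subunit of complex II was called by edgeR, where the smallest adjusted p was 0.409 and 0 of 4 had an unadjusted p under 0.05. The log2 fold change was 0.29 ± 0.22 for Sdha, 0.25 ± 0.29 for Sdhb, 0.23 ± 0.30 for Sdhd and -0.064 ± 0.36 for Sdhc. In complex III, beside Uqcr10, the cytochrome c1 gene Cyc1 had 0.73 ± 0.40 (edgeR adjusted p = 0.258), the hinge protein Uqcrh 0.62 ± 0.40 (0.339) and the small subunit Uqcr11 0.53 ± 0.50 (0.529), none of which passed. Single inputs moved these values: without the saline withdrawal input Sdha was at 0.039 and Uqcrh at 0.047, without the saline input Sdha was at 0.54, Uqcrh at 1.08 and Uqcr11 at 0.31, and without the nonescalating input Sdhd was at 0.041 and Cyc1 at 0.38. Of the 9 complex III subunits, 7 had a fold change above 0.

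Complex V held Atp5k as its 1 call among 15. The F1 delta subunit Atp5d averaged 173 ± 102 CPM in IP libraries and 89.5 ± 12.5 CPM in inputs, a log2 fold change of 0.97 ± 0.40 that did not pass (edgeR adjusted p = 0.145), and the F1 epsilon subunit Atp5e had 1.02 ± 0.46 (0.168). Atp5g1, Atp5g2 and Atp5g3 encode the same mature c subunit with different import sequences. Atp5g3 held 55.7 ± 7.33% of their summed CPM per kilobase in IP libraries, against 51.4 ± 8.49% in inputs. Atp5g1 held 35.2 ± 9.46%, against 29.7 ± 11.3%, and Atp5g2 9.11 ± 4.56%, against 18.9 ± 12.3%. Atp5g2 had the most negative fold change of the 3 at -1.28 ± 0.55, and it was not called (edgeR adjusted p = 0.156). It rested on the saline withdrawal input, without which it was -0.13. Among the assembly factors other than Ndufaf1, the ones with the lowest p were Ndufaf2 at -0.71 ± 0.44, Ndufaf3 at 0.52 ± 0.36 and Ndufaf4 at -0.45 ± 0.37, with edgeR adjusted p of 0.318, 0.373 and 0.472. Ndufaf3 was at 0.26 without the saline withdrawal input and 1.01 without the nonescalating input, and Ndufaf4 at -0.044 without the saline input and -0.84 without the nonescalating input.

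Complex IV has tissue isoforms, and these held the largest differences between IP and input RNA. Cox6a2, the isoform of heart and skeletal muscle that is also known from parvalbumin interneurons of mouse brain, was at 0, 0 and 0.998 CPM as lowest, median and highest in the 12 IP libraries, against 4.10, 3.89 and 6.15 CPM in the nonescalating, saline and saline withdrawal inputs. Every IP library lay below every input, including the 11 outside this comparison. The log2 fold change was -5.27 ± 1.25 (edgeR adjusted p = 0.0200), a value that depends on the prior count since most IP libraries were at 0, for a gene that passed the filter through the inputs alone. It held 0.0693 ± 0.122% of the summed CPM per kilobase of Cox6a1 and Cox6a2 in IP libraries, against 3.53 ± 1.51% in inputs. The 7 interneuron markers, Pvalb among them, summed to 33.6 to 149 CPM in the 12 IP libraries, against 269 to 706 CPM in the inputs, and their part in the result was not tested. Cox6a1, the common isoform, had a log2 fold change of 0.30 ± 0.34 (edgeR adjusted p = 0.605).

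Ndufa4l2, the paralog of the complex IV subunit Ndufa4 that is known from pericytes and from hypoxic cells, went the other way. It was at 0, 2.21 and 8.94 CPM as lowest, median and highest in the 12 IP libraries and at 0 in all 3 inputs. Counts were present in 11 of 12 IP libraries, at least 21.6-fold higher than the limit set by 3 counts summed over all inputs, and edgeR called it (adjusted p = 0.0463) after it had passed the filter through IP libraries alone. Cox4i2, the isoform of Cox4 known from lung and from oxygen-sensing cells, had 1 count in the inputs together and counts in 10 of 12 IP libraries. The pooled ratio of IP to input was 72.6 with a 95% counting interval of 13 to 2867, and the gene was not called (edgeR adjusted p = 0.124). Cox6b2, the testis isoform of Cox6b, was at 0 in the inputs and present in 9 of 12 IP libraries, at least 11.2-fold higher than the same limit, and was not called (edgeR adjusted p = 0.114). Cox7a1, the muscle isoform of Cox7a, was at 0 in the inputs, was present in 8 of 12 IP libraries and was too low to be tested, and Cox8b and Cox8c were at 0 throughout these 15 libraries. The interval and the limits cover counting error only.

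The isoforms seen mainly in IP RNA were read beside the mural markers and the share of reads outside genes. In the 5 IP libraries of all 23 with the highest summed mural markers (1637 to 4596 CPM), with 45% to 70.7% of reads outside genes, Cox4i2 was at 3.44 to 9.39 CPM, Ndufa4l2 at 2.18 to 8.48 and Cox7a1 at 0.249 to 3.19 with a median of 0.285. In the 5 with the lowest (28.0 to 257 CPM), with 21.2% to 32.3% outside genes, Cox4i2 was at 0 in 4, Cox7a1 at 0 in 5 and Ndufa4l2 at 0 in 2, with a highest level of 2.24 CPM. Cox6b2 was at 0 in 3 of the 5 lowest and reached 4.77 CPM there, against 5.09 CPM in the 5 highest. The order did not hold in every library: nonescalating withdrawal set A replicate 4, with 350.5 CPM of mural markers, held 1.42 CPM of Cox7a1, and set A replicate 3 of that group, with 526 CPM, held 6.96 CPM of Cox4i2. The part of mural cells and of reads outside genes in these values was not tested.

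Among the 88 tested genes with a gene model, Spearman's rho across genes between the IP over input log2 fold change and the GC content of the transcript was 0.45, against 0.24 across 14326 genes. With transcript length it was -0.22, against -0.062. The median transcript was 812 bases long in these genes and 2872 bases in all genes. Genes are not independent replicates, and these values are descriptions.

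Turning to the 5 IP groups, the summed level of the 93 genes had lowest, median and highest values of 3344, 6344 and 9467 CPM in the 9 nonescalating withdrawal libraries. The 5 saline withdrawal libraries were at 3842, 5831, 7263, 3927 and 2504 CPM. Escalating libraries were at 8184 and 7892 CPM, nonescalating libraries at 8541, 8972, 5443 and 7087 CPM and saline libraries at 5253, 8319 and 6425 CPM. The 2 escalating libraries lay close together inside the nonescalating and saline ranges, and each withdrawal group reached lower than any library without withdrawal. Bulk RNA cannot tell fewer cells of a type apart from less RNA per cell.

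The summed level moved with the share of reads outside genes. In the 11 IP libraries with up to 35% of reads outside genes, the lowest, median and highest summed levels were 6344, 8319 and 9467 CPM. In the 7 with over 35% and up to 50% they were 3927, 5831 and 7087 CPM, and in the 5 with over 50% they were 2504, 3719.9 and 5165 CPM. Those 5 all came from withdrawal mice. With them left out, the mean was 7688 ± 1390.3 CPM in nonescalating withdrawal and 5674 ± 1673 CPM in saline withdrawal libraries, against 7511 ± 1597 CPM in nonescalating and 6666 ± 1547 CPM in saline libraries, where no library was left out. The 3 saline withdrawal libraries that remained were all of set B, and all saline libraries are of set A. Withdrawal and library set therefore cannot be told apart in these means of saline mice.

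**Figure D4:**
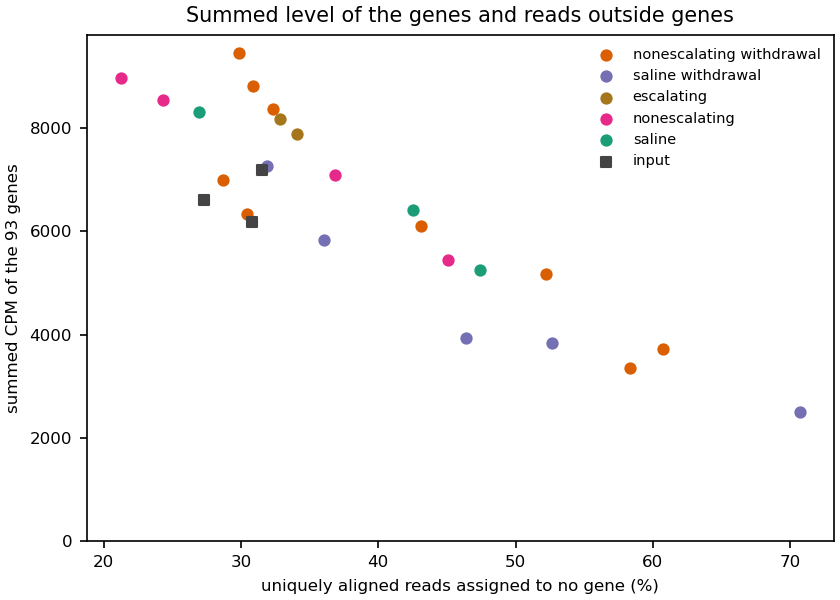
Summed CPM of the 93 genes (vertical axis) against the percentage of uniquely aligned reads outside genes (horizontal axis) in the 23 IP libraries and 3 inputs, marked by group. The 5 libraries beyond 50% lie between 2504 and 5165 CPM, and the 11 libraries up to 35% lie between 6344 and 9467 CPM.

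None of the 7 contrasts between IP groups called any of the 89 genes tested in them (edgeR adjusted p under 0.05), and none called any of the 16908 genes tested. DESeq2 and limma voom also called none of these genes in any contrast, and over all genes DESeq2 called 4 to 33 per contrast and limma voom 0. The contrasts share groups of libraries, so their fold changes are not independent. The genes not tested among IP groups were Cox6a2, Cox7b2, Cox8b and Cox8c.

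To ask how self-administration without escalation relates to these genes, nonescalating libraries were set against saline libraries. Of the 89 genes, 64 had a fold change above 0 (71.9%, against 49.5% of all genes), with a median log2 fold change of 0.17, against -0.0024 over all genes. Called genes were 0% of all genes, and at an unadjusted p under 0.05 there were 0 of 89, against 2.11%. With the share of reads outside genes as a covariate the median was -0.098. Without nonescalating replicate 1, 2 or 3 it was 0.045, 0.075 and 0.29, and without saline replicate 1 or 3 it was 0.086 and 0.30. That share was 21.2% to 45% in nonescalating and 27.0% to 47.4% in saline libraries, the D2 neuron markers summed to 5702 to 14350.2 CPM and 7605 to 11887 CPM, and the mural markers to 117 to 2926 CPM and 119 to 2365 CPM in the same order, and the part of these markers in the result was not tested. Ndufa2 was at 47.3, 61.5, 21.1 and 26.4 CPM in nonescalating libraries, against 25.3, 19.3 and 14.6 CPM in saline libraries. The groups overlapped, and its log2 fold change was 0.99 ± 0.49 (edgeR adjusted p = 1.0). Ndufa4, the complex IV subunit, was at 116, 90.8, 53.1 and 54.9 CPM in nonescalating and 32.6, 70.1 and 39.9 CPM in saline libraries, with 0.73 ± 0.57 (1.0). Cox6b2 was at 4.77, 0, 1.42 and 0.952 CPM in nonescalating and 0.672, 0 and 0 CPM in saline libraries.

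Escalating libraries were compared with saline and with nonescalating libraries. Against saline, 70 of 89 genes had a fold change above 0 (78.7%, against 48.2% of all genes), with a median log2 fold change of 0.30, against -0.022 over all genes. Without escalating replicate 1 the median was 0.14, and without saline replicate 3 it was 0.47. With the share of reads outside genes as a covariate it was also 0.14, with 61 of 89 genes above 0. That share was 32.8% and 34.1% in escalating and 27.0% to 47.4% in saline libraries. The D2 neuron markers summed to 8504 to 17586 CPM in escalating and 7605 to 11887 CPM in saline libraries, the mural markers to 475 to 884 CPM and 119 to 2365 CPM in the same order, and their part in the result was not tested. Called genes were 0% of all genes, and 0 of 89 had an unadjusted p under 0.05, against 3.06%. In 19 genes (21.3%) both escalating libraries lay above all 3 saline libraries, against 8% of all genes, and in 2, Sdhd and Ndufa4l2, both lay below, against 7.14%. The 19 were the complex I subunits Ndufa2, Ndufa3, Ndufa5, Ndufa13, Ndufab1, Ndufb2, Ndufb3, Ndufc1 and Ndufs5, Sdhb of complex II, Uqcrh and Uqcrq of complex III, Ndufa4 and Cox7a2l of complex IV, and Atp5e, Atp5f1, Atp5g1, Atp5g2 and Atp5l of complex V. Ndufa2 was at 45.5 and 33.0 CPM in escalating libraries, against the saline values above, with a log2 fold change of 0.99 ± 0.57 (edgeR adjusted p = 1.0). The lowest p belonged to Uqcrh, which was at 107 and 57.6 CPM in escalating libraries, against 47.2, 53.4 and 46.9 CPM in saline libraries (0.74 ± 0.39, edgeR adjusted p = 1.0). Ndufc1, a small complex I subunit, was at 61.4 and 29.3 CPM in escalating libraries, against 18.6, 26.2 and 16.1 CPM in saline libraries (1.16 ± 0.64). In both genes the 2 escalating libraries lay above the saline libraries and far from each other. Ndufb4 was at 19.9 and 7.16 CPM in escalating libraries, against 7.64, 6.24 and 6.79 CPM in saline libraries, and the groups overlapped (0.97 ± 0.54). Across the 88 genes with a model, Spearman's rho between this fold change and transcript length was -0.49, against -0.023 across 15333 genes.

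Against nonescalating libraries, 58 of 89 genes had a fold change above 0 in escalating libraries (65.2%, against 48.4% of all genes), with a median log2 fold change of 0.092, against -0.017 over all genes. The direction of that median rested on single libraries: it was -0.018 without escalating replicate 1 and -0.0071 without nonescalating replicate 3, and 0.22 without any 1 of escalating replicate 2 and nonescalating replicates 1 and 2. With the share of reads outside genes as a covariate the median was 0.19. Called genes were 0% of all genes, and 0 of 89 had an unadjusted p under 0.05, against 3.3%. Both escalating libraries lay above all 4 nonescalating libraries in 3 genes, Ndufab1, Ndufb2 and Atp5g2 (3.37%, against 4.94% of all genes). The lowest p belonged to Ndufs4, an accessory subunit of the NADH module, at 131 and 57.0 CPM in escalating and 73.6, 70.1, 35.9 and 51.9 CPM in nonescalating libraries (0.70 ± 0.45, edgeR adjusted p = 1.0), followed by Cox6b2 and Atp5e. Cox6b2 went the other way, with a log2 fold change of -3.29 that rests on levels near 0. It was at 0.129 and 0.211 CPM in escalating and 4.77, 0, 1.42 and 0.952 CPM in nonescalating libraries. Atp5e was at 36.2 and 22.9 CPM in escalating and 25.1, 16.3, 9.68 and 13.1 CPM in nonescalating libraries. Ndufa2 had a log2 fold change of 0.0081 ± 0.54 (1.0).

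After withdrawal, nonescalating libraries were compared with saline libraries. Of the 89 genes, 75 had a fold change above 0 (84.3%, against 50.9% of all genes), with a median log2 fold change of 0.33, against 0.012 over all genes. Called genes were 0% of all genes, and at an unadjusted p under 0.05 there were 5 higher genes, against 3.35% of all genes, and 0 lower, against 1.86%. The median was 0.84 within set A alone (4 nonescalating and 2 saline withdrawal libraries) and turned to -0.040 within set B alone (5 and 3). Set A is not uniform here: saline withdrawal set A replicate 2 lists 32531 genes, as set B libraries do. A fit with that library in set B was not made. In set A the share of reads outside genes was 28.7% to 60.7% in nonescalating withdrawal libraries, and 52.7% and 70.7% in saline withdrawal libraries. In set B it was 29.8% to 58.4% and 31.9% to 46.4% in the same order, and its part in the difference between sets was not tested. With that share as a covariate the median was 0.098. Without the 5 libraries over 50%, which leaves saline withdrawal libraries of set B only, it was 0.19. Without saline withdrawal set A replicate 1 it was 0.13, and without nonescalating withdrawal set A replicate 4 it was 0.21. In the same contrast 6 of 6 D2 neuron markers had a fold change above 0 and 7 of 7 mural and 7 of 7 endothelial markers below 0, and their part in the result was not tested.

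Uqcrc1, a core protein of complex III, had the lowest p of that contrast. It was at 32.1, 75.6 and 2404 CPM as lowest, median and highest in the 9 nonescalating withdrawal libraries, against 85.9, 67.6, 75.4, 27.3 and 62.5 CPM in the 5 saline withdrawal libraries. The highest value stood in set B replicate 2 alone, 11 times the next, and the mean of the other 8 libraries was 97.7 ± 72.8 CPM. The log2 fold change was 2.14 ± 0.87 (edgeR adjusted p = 0.749), and without that library it was 0.35. Atp5b was at 855, 1424 and 2458 CPM as lowest, median and highest in nonescalating withdrawal libraries, against 769, 1434, 1895, 801 and 479 CPM in saline withdrawal libraries. The groups overlapped, with a log2 fold change of 0.67 ± 0.30 (0.749). The assembly factor Ndufaf2 had 1.03 ± 0.44 (0.749). Ndufa2 was at 6.45, 14.2 and 32.9 CPM as lowest, median and highest in nonescalating withdrawal libraries, against 17.9, 18.2, 17.9, 17.3 and 8.84 CPM in saline withdrawal libraries, with -0.17 ± 0.36 (0.898).

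**Figure D5:**
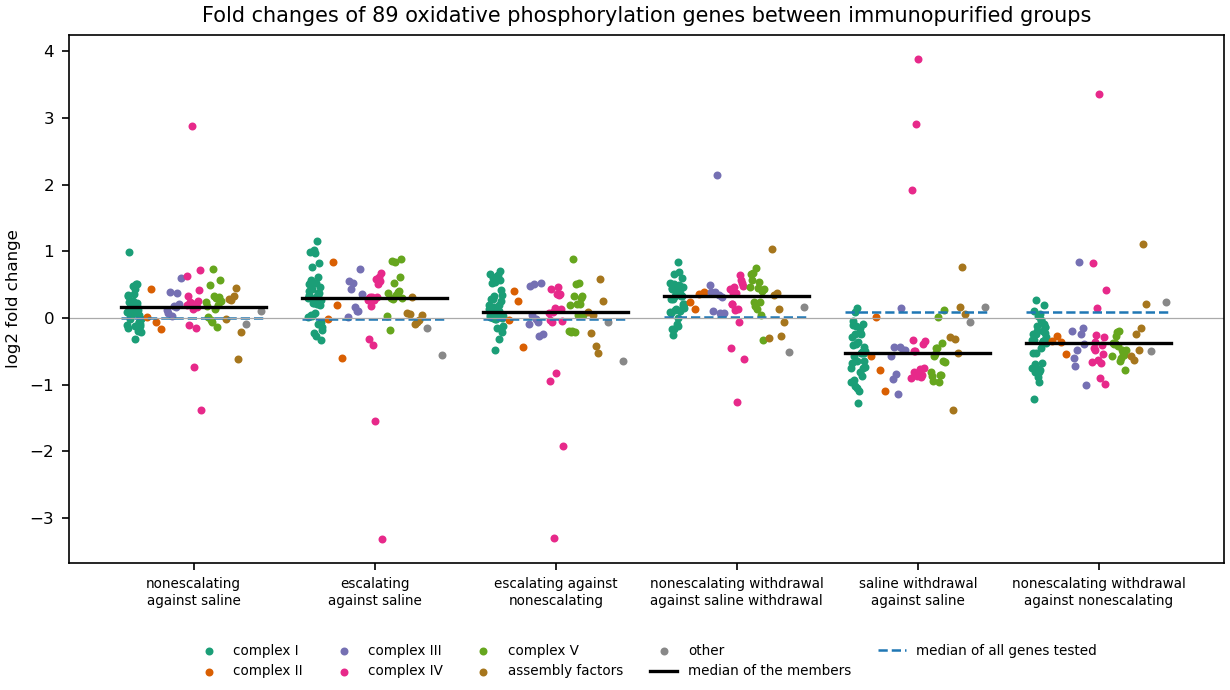
Log2 fold change (vertical axis) of each of the 89 tested genes in 6 contrasts between IP groups, with a black line at their median and a dashed blue line at the median of all genes tested. The points lie mostly above 0 in the contrasts of cocaine with saline and mostly below 0 in the contrasts of withdrawal with no withdrawal, and no point passed the test.

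Withdrawal libraries were compared with libraries of the same treatment without withdrawal. In saline mice, 76 of 89 genes had a fold change below 0 (85.4%, against 46.3% of all genes), with a median log2 fold change of -0.52, against 0.084 over all genes. Without saline withdrawal set A replicate 1, the library with the most reads outside genes, the median was -0.25. Called genes were 0% of all genes, and 12 of 89 were lower at an unadjusted p under 0.05, against 2.97% of all genes. In 8 genes (8.99%, against 3.91%) all 5 saline withdrawal libraries lay below all 3 saline libraries: Ndufs7, Ndufs8, Ndufs6, Ndufa13 and Ndufb7 of complex I, Uqcr10, and the common complex IV isoforms Cox6a1 and Cox8a. In Cox6b2 alone all lay above, against 2.73% of all genes. Its levels were near 0, at 1.49, 1.02, 1.24, 1.71 and 3.13 CPM in saline withdrawal and 0.672, 0 and 0 CPM in saline libraries. These counts of genes compare levels without a set term, although saline withdrawal libraries are of both sets and saline libraries of set A only. Cox8a was at 79.2, 105, 122, 85.0 and 30.8 CPM in saline withdrawal libraries, against 136, 219.6 and 149 CPM in saline libraries. The genes with the lowest p were Sdhd, at 25.4, 49.0, 71.6, 30.7 and 29.5 CPM in saline withdrawal and 46.8, 92.0 and 46.8 CPM in saline libraries (-1.10 ± 0.35, edgeR adjusted p = 0.782), Ndufb5 (-1.28 ± 0.42) and the accessory complex I subunit Ndufa10 (-0.95 ± 0.36). Ndufa2 had -0.049 ± 0.53 (0.979).

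In nonescalating mice, 76 of 89 genes had a fold change below 0 after withdrawal (85.4%, against 44.2% of all genes), with a median log2 fold change of -0.38, against 0.086 over all genes. The share of all genes called was 0%, and 8 of 89 were lower at an unadjusted p under 0.05, against 1.79% of all genes. In complex V all 15 fold changes lay below 0, with a median of -0.47. Ndufa2 had the lowest p, at the nonescalating withdrawal and nonescalating values above: the mean was 15 ± 8.30 CPM in nonescalating withdrawal and 39.1 ± 18.8 CPM in nonescalating libraries, with a log2 fold change of -1.21 ± 0.41 (edgeR adjusted p = 0.926). Ndufb5 had -0.96 ± 0.35 and the complex I subunit Ndufb3 -0.89 ± 0.35.

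Both withdrawal contrasts moved toward 0 with the share of reads outside genes. Without the 5 libraries over 50% the median was -0.12 in saline and -0.054 in nonescalating mice, and with the share as a covariate it was -0.23 and -0.094 in the same order. Leaving out the 5 left only set B libraries of saline withdrawal mice, against saline libraries of set A, so that the -0.12 leans on the set term. All IP libraries without withdrawal are of set A, so the medians of -0.52 and -0.38 lean on that term too. Without the set term the median was -0.44 in saline and -0.23 in nonescalating mice. Below 0 lay 73 and 66 of 89 genes, and 2 and 6 had an unadjusted edgeR p under 0.05, in the same order. In saline mice 7 of 7 mural and 7 of 7 endothelial markers had a fold change above 0 after withdrawal and 6 of 6 D2 neuron markers below 0, and their part in the result was not tested. The interaction of cocaine and withdrawal, the fold change of nonescalating withdrawal over saline withdrawal less that of nonescalating over saline, was above 0 in 62 of 89 genes (69.7%, against 54% of all genes). Its median was 0.18, against 0.069 over all genes, and 0 of 89 had an unadjusted p under 0.05, against 2.03%, with 0% of all genes called. That median turned to -0.0083 without saline withdrawal set A replicate 1 and was 0.37 without saline withdrawal set B replicate 2. It was 0.12 without saline withdrawal set A replicate 2, 0.043 without saline replicate 3, 0.066 without nonescalating replicate 3, 0.084 without nonescalating withdrawal set A replicate 4 and 0.30 without nonescalating withdrawal set B replicate 4. The lowest p belonged to Ndufa2 (-1.16 ± 0.61), the membrane-arm subunit Ndufb6 (1.15 ± 0.70) and Uqcrc1 (1.97 ± 1.32), each with an edgeR adjusted p of 1.0. Without nonescalating withdrawal set B replicate 2 the value for Uqcrc1 was 0.17.

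The genes varied together between IP libraries. Over the 23 IP libraries, the median Pearson correlation of log2 CPM between pairs of the 89 genes was 0.49 (quartiles 0.21 and 0.69, 3916 pairs), against -0.030 between these and other genes. After group and set means were taken out it was 0.53, and after the share of reads outside genes was taken out as well it was 0.18. In the 18 libraries with up to 50% outside genes it was 0.29. Within complexes the median was 0.65 in complex V, 0.56 in IV, 0.54 in II, 0.54 in I and 0.50 in III, and 0.089 among the assembly factors. With genes of the other complexes it was 0.56 for complex V, 0.49 for IV, 0.56 for II, 0.50 for I, 0.51 for III and 0.11 for the assembly factors, so that in II, III and the assembly factors it was no lower than within the group. Atp5k had the highest median correlation with the rest, 0.73. The isoforms Cox7a1 (-0.53), Cox6b2 (-0.46), Cox4i2 (-0.44) and Ndufa4l2 (-0.33) went against the rest. These correlations share libraries and depth and are descriptions only.

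Between libraries the genes spread less than most. The median SD of log2 CPM over the 23 IP libraries was 0.664 in these genes and 0.901 over all genes tested, with median mean levels of 33.8 and 12.1 CPM. Of those averaging at least 5 CPM, the complex I core subunit Ndufs1 (0.335), Sdha (0.365) and Ndufb8 (0.419) had the smallest SD. Uqcrc1 (1.24), Atp5g1 (0.998) and Atp5s (0.996) had the largest. That of Uqcrc1 rested on nonescalating withdrawal set B replicate 2, and over the other 22 libraries it was 0.733.

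Other genes of the pathway were read from lists of its assembly factors, carriers and regulators. In IP against input, 0 of 37 tested assembly factors outside the symbol rule, 0 of 18 enzymes of the tricarboxylic acid cycle and 0 of 11 genes of coenzyme Q synthesis were called by edgeR, with 3, 3 and 1 at an unadjusted p under 0.05, against 7.38% of all genes called and 26.3% at an unadjusted p under 0.05. Of 14 mitochondrial carrier and import genes 2 were called lower, the outer membrane channel Vdac2 (-0.97 ± 0.23, edgeR adjusted p = 0.0203) and the import receptor Tomm70a (-0.78 ± 0.22, 0.0428). Of 6 other electron carriers Etfa, of the electron transfer flavoprotein, was called lower (-1.62 ± 0.46, 0.0437), and of 16 glycolysis enzymes Aldoc, which the astrocyte list also holds (-3.86 ± 0.30, 1.78e-06). Of 18 regulators of respiratory chain genes, the coactivator Ppargc1a was called lower at -1.13 ± 0.21 (edgeR adjusted p = 0.00466) and Nrf1, whose product is NRF-1, higher at 1.74 ± 0.44 (0.0272). Between IP groups none of these genes was called. After withdrawal, nonescalating over saline, 17 of 17 glycolysis enzymes had a fold change above 0, with a median of 0.50 and 4 higher at an unadjusted p under 0.05, against 50.9% of all genes above 0 and 3.35% higher. In that contrast the D2 neuron markers lay above 0, the mural and endothelial markers below 0, and the share of reads outside genes was 28.7% to 60.7% in nonescalating withdrawal and 31.9% to 70.7% in saline withdrawal libraries, and their part in the result was not tested. The 14 carrier and import genes all had a fold change above 0 in nonescalating over saline libraries (against 49.5% of all genes), with a median of 0.26. All 14 had one below 0 in nonescalating withdrawal over nonescalating libraries (against 44.2% of all genes), with a median of -0.35, and the nonescalating libraries enter both of these contrasts.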

How the data were processed

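The 26 libraries are 23 of IP and 3 of input RNA. The deposited files hold raw read counts per gene, made by the authors with STAR 2.0.0e and HTSeq on mm10, per the submitters' processing notes. No source used here gives the HTSeq version, the gene annotation or the strand setting. HTSeq's own summary lines stayed out of library sizes and tests, and gave the percentage of uniquely aligned reads that lay in no gene (21.2% to 70.7%). The tables list genes under 2 annotations: 10 list 32531 genes and 16 list 32657. Joined on 31735 symbols in both and 242 pairs of an old and a current symbol, they share 31977 genes, with 99.5% to 99.9% of each library's gene counts. Gene counts per library ran from 3279457 to 19122303, and low genes are less certain in the shallower libraries.

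Tests were edgeR 4.0.16 quasi-likelihood F tests in R 4.3.3, with TMM factors, filterByExpr and Benjamini-Hochberg adjustment over all genes tested, called at an adjusted p under 0.05. IP against input used 12 IP and 3 input libraries with terms for condition and library set (15610 genes). The IP groups were fitted together over 23 libraries with terms for group and set (16908 genes). Alternatives were DESeq2 1.42.0, limma voom 3.58.1 with library weights, RLE factors, no low-count filter, no set term, a replicate block, unpaired symbols, the share of reads outside genes as a covariate, each set alone, all IP libraries, and each library left out. Leaving out libraries with over 50% of reads outside genes was added after the data were seen. Replicate numbers did not pair libraries: residuals of 25 same-numbered pairs had a median correlation of -0.18, against -0.071 in 78 others. The 56 pairs of libraries within groups held 0 identical pairs. CPM and log2 CPM (prior count 2) were computed on scaled library sizes, and levels per kilobase on the principal transcripts of GENCODE M21. Scripts were tested on simulated data.

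The genes and lists were chosen with earlier results of these data known. Named genes were Ndufa2 throughout, the called genes and, in each complex, the 4 of lowest p for IP against input, the 3 of lowest p per contrast of IP groups, the 2 highest and 2 lowest per kilobase in each complex, the tissue isoforms, and those of largest and smallest spread. Other genes were named after their values were seen, to spell out short counts. Atp5o has no gene model and so no level per kilobase, mitochondrially encoded genes were not analysed here, and values of 1 complex I gene that the rule names are not reported here.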

Additional observations from a re-analysis of the deposited data

Results flagged for a closer look

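Of 171 groups of values looked at, 11 held a library set apart from the others by a gap large beside the group's range. Each group of values is 1 gene or summed level within the IP groups of 4, 5 or 9 libraries. Chance alone gives about 1 in 20. That is a rough guide only, since the same libraries recur and the genes vary together. The gaps named here carry levels in CPM, and none of them was explained or tested further.

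Uqcrc1 stood at 2404 CPM in nonescalating withdrawal set B replicate 2, with the next highest of the group at 219 CPM. The summed level of complex III in that library, 2743 CPM against a next highest of 681 CPM, is the same value seen again. In saline withdrawal set A replicate 1, 3 genes stood below the rest of their group: Ndufa2 at 8.84 CPM (next lowest 17.3), Uqcr11 at 2.69 CPM (17.6) and Cox6a1 at 29.7 CPM (81.6). That library had 70.7% of its reads outside genes, the highest share of all.

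In nonescalating withdrawal set A replicate 4, Ndufb8 at 60.7 CPM and Uqcr11 at 61.1 CPM stood above the rest of the group, whose next highest were 27.7 and 26.2 CPM. Single libraries also stood apart in Uqcrc1 at 27.3 CPM (saline withdrawal set B replicate 3, next lowest 62.5) and Atp5l at 3.50 CPM (saline withdrawal set B replicate 2, next highest 1.99). The same held for Atp5g2 at 0.239 CPM (nonescalating withdrawal set B replicate 5, next lowest 3.84) and Uqcrb at 4.11 CPM (nonescalating withdrawal set A replicate 1, next lowest 12.6).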

How the results depend on the processing

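The 3 inputs and the spread between IP libraries limit what these data can show, and 0 calls between IP groups do not show equal levels. In IP against input, 3 genes were called higher. DESeq2 called 10 of 89 higher and the covariate for reads outside genes 8 of 89, while no set term gave 1, all 23 IP libraries 1, limma voom 0 and the replicate block 0. Of the 3 called lower, the replicate block left 0, and its numbers pair nothing in the design. It changed no call between IP groups. Leaving out 1 library gave 0 to 4 higher and 0 to 3 lower, and over all genes 241 to 1546 calls, against 1152 with all libraries. Over all genes and both directions DESeq2 called 3101 of 15500 and all 23 IP libraries 1615 of 16407. Of 15610 genes the covariate called 1796, no set term 1077, limma voom 920 and the replicate block 173. The counts of these genes under each setting are to be read beside those totals. Between IP groups, where edgeR called 0 of all genes, DESeq2 called 6 (nonescalating against saline), 6 (escalating against saline), 15 (escalating against nonescalating), 33 (nonescalating withdrawal against saline withdrawal), 8 (saline withdrawal against saline), 21 (nonescalating withdrawal against nonescalating) and 4 (interaction). The covariate called 2 and 4, and no filter 2 and 1, in escalating against saline and against nonescalating.

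The median of the genes for nonescalating withdrawal against saline withdrawal was 0.84 within set A, where the 2 saline withdrawal libraries had over 50% of reads outside genes. For the interaction it ranged from -0.0018 (limma voom) to 0.28 over the 9 alternatives other than leaving out 1 library, and from -0.0083 to 0.37 without 1 library. With no scaling factor the escalating libraries summed to 7652 CPM over the 93 genes and 1716 CPM over complex I. Fold changes near 0 changed sign, and the cause was not tested. Ndufa2 in escalating against nonescalating (0.0081) was -0.019 with DESeq2, -0.018 with RLE factors, -0.0013 with no filter, -0.040 with the replicate block, -0.0055 without the libraries over 50% outside genes, and -0.24 to 0.31 without 1 library. In saline withdrawal against saline (-0.049) it was 0.026 with DESeq2, 0.031 with RLE factors, 0.14 with the covariate, 0.85 without those libraries, and -0.23 to 0.32 without 1 library. In nonescalating withdrawal against saline withdrawal (-0.17) it was 0.021 with the replicate block and 0.56 within set A. Ndufs4 in escalating against nonescalating ranged from -0.018 (without escalating replicate 1) to 1.18. Sdhc in IP against input (-0.064) was 0.37 with limma voom, 0.088 with the covariate, and -0.44 to 0.64 without 1 library. Of the other values for single genes, 445 with all other settings and 577 without 1 library kept their direction and side of the threshold, 17 and 43 no longer passed, and 8 and 1 newly passed. Only called genes can stop passing, so the 17 and 43 all belong to the 6 genes called in IP against input. Of 15 fits without 1 library, the call was lost in 12 for Ndufa4l2, 10 each for Uqcr10 and Ndufaf1 and 8 for Atp5k. It was lost in 2 for Cox6a2 and 1 for Ndufb5.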
